A study of Mus musculus with 8 samples.

Results

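The integrated stress response was examined here through 10 of its genes, 4 encoding the kinases that start it and 6 encoding the factors and target genes that follow. They were taken by symbol from the deposited annotated table of log2 intensities, in which each of the 10 is measured by 1 probe set, out of 30918 genes in all. RNA came from multipotent progenitors (MPPs) sorted as Lin- Sca-1+ c-Kit+ CD48- CD150- from the bone marrow of untreated C57Bl/6 mice. Homozygotes for the Elektra allele of Slfn2 (elektra/elektra) gave 4 arrays. It is a loss-of-function allele per the series title, carried in every cell of the animal. Littermates with the wildtype allele on both chromosomes gave the other 4. Each sample pooled marrow of 2 mice per the labels, while the design text counts 4 mice for each genotype, so the number of animals is not settled here; age and sex of the mice are not given in the sources used here.

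Cells answer several kinds of stress by phosphorylating eIF2, the factor that brings the initiator tRNA to the ribosome. The kinase genes are Eif2ak1 (HRI, active when haem is short and in mitochondrial stress), Eif2ak2 (PKR, activated by double-stranded RNA), Eif2ak3 (PERK, a sensor of unfolded protein in the endoplasmic reticulum) and Eif2ak4 (GCN2, activated by uncharged tRNA and stalled ribosomes). Phosphorylated eIF2 lowers general protein synthesis and favours translation of Atf4 mRNA. The ATF4 protein then raises transcription of genes such as Ddit3 (CHOP), Trib3, Asns and Nupr1, and Ppp1r15a (GADD34) brings a phosphatase back to eIF2 and closes the loop. The SLFN2 protein is known from T cells to bind tRNA and protect it from cleavage. The arrays measured RNA and neither eIF2 phosphorylation nor ATF4 protein.

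The sequences around the starts of these genes are shown because 3 of the 6 response genes varied together between arrays and 3 did not, as described below. Whether any motif bears on that variation was not tested. All sequences are from RefSeq on build GRCm38.p6, and all 10 genes were found there by symbol. They were searched on both strands, from 250 bases before to 50 after each annotated start, for the C/EBP-ATF response element TGATGNAA, through which ATF4 is known to act, the cAMP response element TGACGTCA, the interferon-stimulated response element and the ER stress response element. Of 32851 promoters in the RefSeq table, 3.97% held the first, 1.79% the second, 3.44% the third and 0.119% the last, which none of the 10 genes held. No 2 matches overlapped. Capitals mark a match, read as its reverse complement where it lies on the opposite strand, and the first 5 windows run from base -120 to base -1, 5′ to 3′ in the direction of transcription.
Asns (chr6:7693210-7693329, minus strand): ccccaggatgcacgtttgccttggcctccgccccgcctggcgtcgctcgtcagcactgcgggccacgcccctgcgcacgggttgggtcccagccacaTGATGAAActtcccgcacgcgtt
Nupr1 (chr7:126625471-126625590, minus strand): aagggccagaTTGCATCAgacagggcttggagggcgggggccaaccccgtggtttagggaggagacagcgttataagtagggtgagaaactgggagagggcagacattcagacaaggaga
Ppp1r15a (chr7:45526269-45526388, minus strand): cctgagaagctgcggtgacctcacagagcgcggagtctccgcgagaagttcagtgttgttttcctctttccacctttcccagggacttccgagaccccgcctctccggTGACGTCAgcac
Atf4 (chr15:80255064-80255183, plus strand): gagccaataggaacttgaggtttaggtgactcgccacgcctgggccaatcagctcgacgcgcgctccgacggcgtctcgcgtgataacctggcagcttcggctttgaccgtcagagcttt
Ddit3 (chr10:127290673-127290792, plus strand): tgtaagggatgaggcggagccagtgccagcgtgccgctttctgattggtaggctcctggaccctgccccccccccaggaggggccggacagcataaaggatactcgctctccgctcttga

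The C/EBP-ATF letters stood at bases -23 to -16 of Asns, at -110 to -103 of Nupr1 on the opposite strand, and inside the Trib3 transcript at bases 15 to 22, also on the opposite strand. Ppp1r15a held the cAMP response element at -12 to -5. The stretches searched at Atf4 and Ddit3 held none of these motifs, which says nothing of elements elsewhere. The interferon element lay inside the Eif2ak2 transcript at bases 19 to 28, and a second copy of them lay at -220 to -211 of Ppp1r15a, outside the window shown. The 2 matches within transcripts are given with 30 bases each.
Trib3 (chr2:152344027-152344056, minus strand): tagctcaggtTTACATCAgccgggcgggga
Eif2ak2 (chr17:78882535-78882564, minus strand): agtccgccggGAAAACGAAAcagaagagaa

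The arrays agreed closely, with correlations of 0.966 to 0.988 between pairs over 34390 probe sets, and their number, 4 per genotype, limits the precision. Elektra replicate 2 stood apart, with an upper quartile of 3.63 on the log2 scale against 3.80 to 3.83 in the other 7 arrays and a median of 2.13 against 2.02 to 2.09. Slfn2 was measured at 2.10 ± 0.08 (SD, n = 4) in Elektra and at 2.08 ± 0.31 in wild type. Both means were close to the level of silent genes described below. Elektra alters the coding sequence, so an RNA level cannot check the labels. Of the surface proteins of the gate, Kit and Ly6a (Sca-1) lay above the 99th percentile of all genes (99.6 for both). Slamf1 (CD150) was 1.80 ± 0.35 and 1.66 ± 0.34, below the level of silent genes described next. Cd48 was 4.01 ± 0.16 and 3.85 ± 0.36, above that level although the gate was CD48-. All 10 genes of the response lay above that silent level, taken as the 95th percentile (2.08) of 1469 olfactory and vomeronasal receptor genes. The median mean level of all genes was 2.10, just above that cut, so the cut lies near the middle of all genes. The 10 genes ranged from Eif2ak3, with a mean of 2.90 over the 8 arrays at the 64.0th percentile of all genes, to Atf4, with 7.51 at the 98.6th. Since each gene has its own probes, no finer ranking of levels is made.

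None of the 10 genes differed between the genotypes by the test across all genes. With limma and Benjamini-Hochberg adjustment, 0 of 10 passed an adjusted p of 0.05, where 0% of all 30918 genes did, the lowest adjusted p of any gene being 0.884. At an unadjusted p under 0.05 there was 1 of the 10 against 5.5% of all genes, and in 0 of 10 did the 4 Elektra values stand wholly apart from the 4 wild-type values, against 3.23% of all genes (1.37% lower in Elektra). In log2 change, Elektra minus wild type, 4 of the genes lay above 0 and 6 below. Their median was -0.013, beside 0.013 for all genes. For 8 of the 10 the 95% interval of that change ran within -1 to 1, as it did for 97.5% of all genes, and for Ddit3 and Ppp1r15a it reached further.

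**Figure D1:**
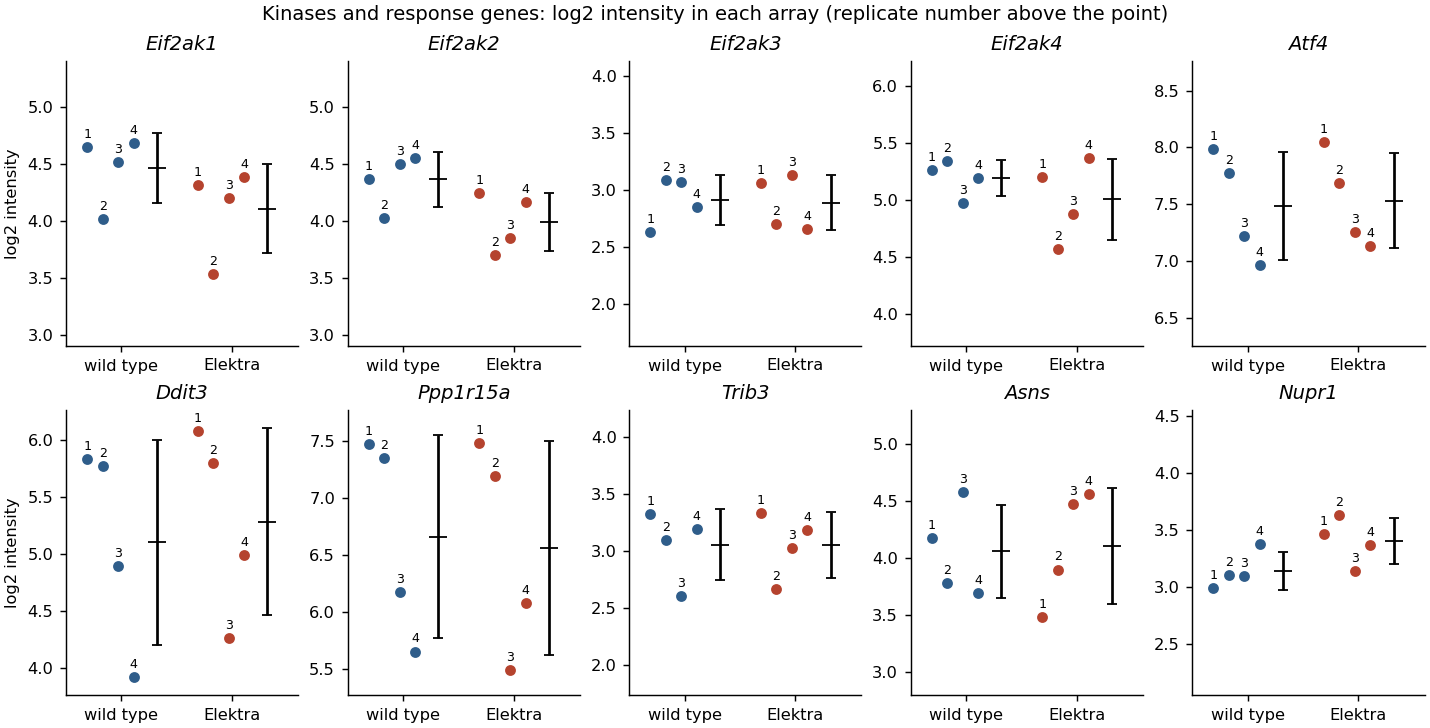
Log2 intensity (vertical axis, each panel on its own range) of the 10 genes in the 4 wild-type arrays (blue) and the 4 Elektra arrays (red); the number above each point is the replicate, and bars give the mean ± SD. Arrays 1 and 2 of both genotypes sit above arrays 3 and 4 for Atf4, Ddit3 and Ppp1r15a, and the genotypes overlap in all 10 panels.

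The 4 kinase genes all had lower means in Elektra (median change -0.27), beside 46.1% of all genes lying below 0, but none passed the test. Eif2ak2 had the largest gap of the 4. Its log2 intensity in Elektra replicates 1 to 4 was 4.25, 3.71, 3.85 and 4.17, and in wild-type replicates 1 to 4 it was 4.38, 4.03, 4.51 and 4.56. The 2 highest Elektra arrays lay above the lowest wild-type array, so the groups overlapped. The log2 change was -0.37 (SE 0.16, 95% interval -0.72 to -0.022), or 0.772-fold, with a limma p of 0.040 unadjusted and 0.884 adjusted over all genes. An exact permutation test over the 70 relabelings, two-sided, gave p = 0.114, and the authors' deposited table gave p = 0.0779. The smallest p that such a permutation test can give with 4 against 4 is 0.0286.

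Eif2ak1 was 4.32, 3.53, 4.21 and 4.38 in Elektra replicates 1 to 4 and 4.65, 4.02, 4.52 and 4.68 in wild type. Elektra replicate 2 was the lowest array, followed by wild-type replicate 2. The log2 change was -0.36 (SE 0.21, limma adjusted p = 0.888). Eif2ak4 was 5.20, 4.57, 4.88 and 5.37 in Elektra and 5.26, 5.34, 4.97 and 5.19 in wild type, where again Elektra replicate 2 was lowest and the groups interleaved, with a log2 change of -0.19 (SE 0.17, limma adjusted p = 0.902). Eif2ak3 differed by less than its spread, at 2.89 ± 0.24 (SD, n = 4) in Elektra against 2.91 ± 0.22, with an interval of the log2 change from -0.35 to 0.31.

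Elektra replicate 2 held the lowest value of all 8 arrays for Eif2ak1, Eif2ak2 and Eif2ak4. Without it the log2 changes were -0.17 for Eif2ak1, -0.28 for Eif2ak2, -0.042 for Eif2ak4 and 0.038 for Eif2ak3. Their median was -0.10, and 1 of the 4 was higher in Elektra. Other arrays left out singly made some changes larger. Over all such omissions Eif2ak1 ran from -0.51 to -0.17 and Eif2ak2 from -0.49 to -0.28. Eif2ak4 ran from -0.31 to -0.042 and Eif2ak3 from -0.12 to 0.053. Elektra replicates 2 and 3 and wild-type replicate 4 were also left out together, a choice taken over from earlier work on these data. Eif2ak1 was then at -0.047, Eif2ak2 at -0.094 and Eif2ak4 at 0.093. For Eif2ak1 and Eif2ak2 these were the lowest 2 arrays of Elektra and the highest of wild type. A smaller change in those genes therefore follows from the choice of arrays. 

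**Figure D2:**
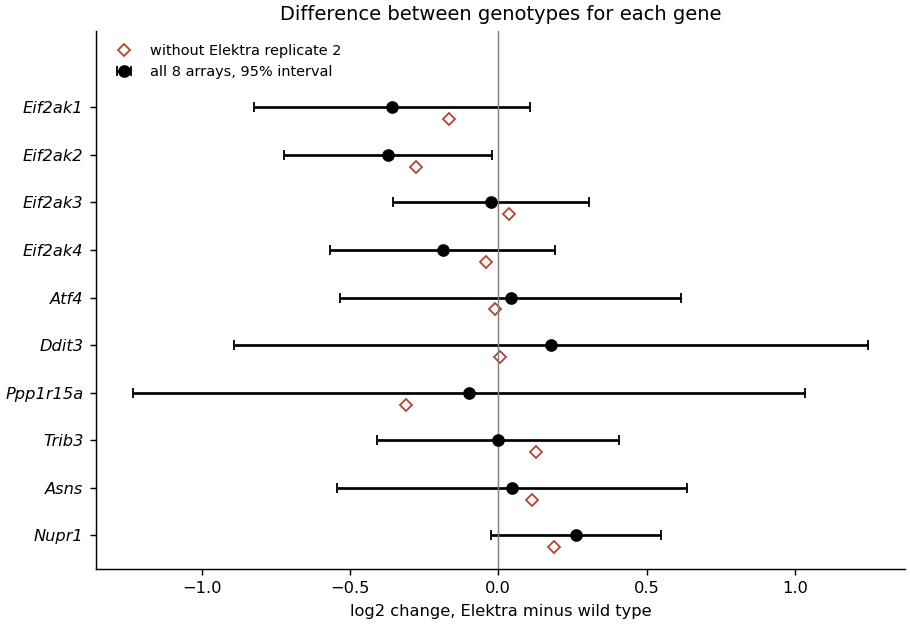
Log2 change, Elektra minus wild type (horizontal axis), of the 10 genes over all 8 arrays with its 95% interval from limma (black), and the value without Elektra replicate 2 (open diamonds). Only the interval of Eif2ak2, -0.72 to -0.022, stays clear of 0, before any adjustment, and those of Ddit3 and Ppp1r15a are the widest.

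Eif2ak2 is itself known as an interferon-stimulated gene, and its printed start holds the interferon element. Of 19 other genes of that kind, 13 were higher and 6 lower in Elektra, 1 had an unadjusted p under 0.05 and 0 passed after adjustment. Over all genes, 53.9% lay above 0 and 5.5% had such a p. The 19 had a median of 0.091, and of 0.18 without Elektra replicate 2, when 15 were higher. The gene with that p, Rsad2, an antiviral enzyme gene, was 4.03 ± 0.18 in Elektra and 3.50 ± 0.06 in wild type (limma adjusted p = 0.884). Of the genes of other sensors of double-stranded RNA, Oas3 (log2 change 0.24) and Oas2 (0.47) had higher means in Elektra, Oas1a (-0.14) a lower one, and Ddx58 (-0.0015) and Ifih1 (0.053) lay near 0. The related Oasl1 was at 0.36. The genes most like Eif2ak2 in their course over the 8 arrays, after centring each genotype, were Slc7a6os (Pearson r = 0.970), Gm23887 (0.968) and Cds2 (0.967). These were picked as the highest of 15458 genes and serve as a description.

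Eif2ak1 is best known from red cell precursors, so erythroid markers are given beside it. Their mean level over 13 genes ran from 3.35 to 4.10 in the Elektra arrays and from 3.54 to 3.86 in wild type. It was lowest in Elektra replicate 2, as for Eif2ak1, but elsewhere the courses differed. The erythroid mean was highest in Elektra replicate 3 (4.10), where Eif2ak1 was 4.21. Among wild-type arrays it was lowest in replicate 1 (3.54), where Eif2ak1 was 4.65. Of the 13, 10 lay above the silent level, 6 were higher and 7 lower in Elektra. An unadjusted limma p under 0.05 was found for 2 of them, both higher, beside 5.5% of all genes in either direction. The haem synthesis gene Alas2 (1.69 ± 0.34 and 1.73 ± 0.27) was below it, while haemoglobin Hbb-bt was 6.68 ± 0.83 and 7.04 ± 0.66. Car1, a carbonic anhydrase gene of early erythroid cells (log2 change 0.77), Hemgn (0.28), Hba-a2 (-1.28, SE 0.80) and Klf1 (0.17) had the smallest p-values, all with a limma adjusted p of 0.884 or more. Hba-a1 and Hba-a2 are near-identical copies, and their probe sets may share signal. In bulk RNA, fewer cells of a type and less RNA per cell cannot be told apart, and the part of erythroid RNA in the Eif2ak1 values was not tested.

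Atf4, Ddit3 and Ppp1r15a varied widely between arrays and in the same way in both genotypes, and their genotype means were close. Atf4, the transcription factor gene at the centre of the response, was 8.05, 7.69, 7.25 and 7.13 in Elektra replicates 1 to 4 and 7.99, 7.78, 7.22 and 6.97 in wild type. Arrays 1 and 2 of either genotype lay at 7.69 or above, and arrays 3 and 4 at 7.25 or below. The log2 change between genotypes was 0.042 (SE 0.26, 95% interval -0.53 to 0.62, limma adjusted p = 0.989).

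Ddit3, which encodes the pro-apoptotic factor CHOP, was 6.08, 5.80, 4.26 and 4.99 in Elektra replicates 1 to 4 and 5.84, 5.77, 4.89 and 3.92 in wild type. Arrays 1 and 2 ran from 5.77 to 6.08 and arrays 3 and 4 from 3.92 to 4.99, with no overlap. Its log2 change between genotypes was 0.18 (SE 0.48, 95% interval -0.89 to 1.25, limma adjusted p = 0.969). Ppp1r15a was 7.49, 7.20, 5.49 and 6.08 in Elektra and 7.47, 7.35, 6.18 and 5.66 in wild type. Again arrays 1 and 2 (7.20 to 7.49) lay clear of arrays 3 and 4 (5.49 to 6.18), and the log2 change between genotypes was -0.099 (SE 0.51, 95% interval -1.23 to 1.03, limma adjusted p = 0.987).

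The spread within genotypes was unusual for Ddit3 and Ppp1r15a. Their residual SDs, 0.86 and 0.92 on the log2 scale, were at the 99.2 and 99.4 percentiles of the genes above the median level, and that of Atf4, 0.45, was at the 92.6 percentile. The kinase genes had residual SDs of 0.23 to 0.35. A log2 change of 1 therefore lay inside the intervals of Ddit3 and Ppp1r15a and outside that of Atf4. A change of -1 lay inside that of Ppp1r15a and outside those of Ddit3 and Atf4.

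The replicate numbers are labels of separate samples, and no source used here says that a number marks a shared day or sort. Immediate-early genes, which many stimuli are known to induce rapidly, were looked at beside these 3 after their values were seen. The mean level of 10 such genes was 7.89, 7.77, 5.82 and 6.35 in Elektra replicates 1 to 4 and 8.01, 7.86, 6.62 and 6.30 in wild type. For all 10 the values of arrays 1 and 2 lay above those of arrays 3 and 4, as in Fos (7.65 to 8.01 against 5.96 to 6.73) and Egr1 (6.12 to 6.36 against 3.82 to 4.82). Atf3, a stress-induced factor gene known to be raised by ATF4, ran from 3.28 to 5.42 against 2.32 to 2.59, and Hspa5, which encodes the endoplasmic reticulum chaperone BiP, from 7.39 to 7.81 against 6.12 to 6.43. Both were singled out after their values were seen. Between genotypes 9 of the 10 immediate-early genes were lower in Elektra, where 46.1% of all genes lay below 0, and 0 had an unadjusted p under 0.05, where 5.5% of all genes did. Their median log2 change was -0.23, and -0.52 without Elektra replicate 2. That array is among the higher 2 of Elektra for these genes, so the lower value follows from the choice of array. The genes most like Atf4 in their course over the 8 arrays, among 15458, were the phosphatase gene Dusp2 (r = 0.998), Snord49a (0.992) and Cyth2 (0.988). The source of the split was not tested.

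**Figure D3:**
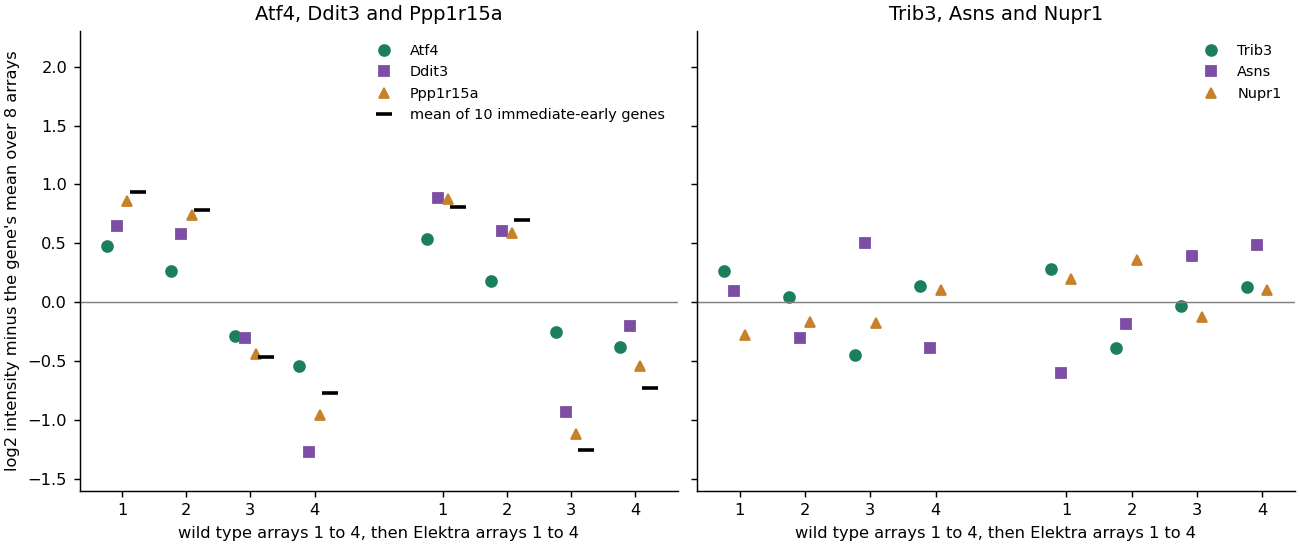
Log2 intensity of each gene minus its mean over the 8 arrays (vertical axis), for the wild-type arrays 1 to 4 and then the Elektra arrays 1 to 4 (horizontal axis). At left Atf4, Ddit3, Ppp1r15a and the mean of 10 immediate-early genes are above 0 in arrays 1 and 2 and below 0 in arrays 3 and 4 of both genotypes; at right Trib3, Asns and Nupr1 show no such division.

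The other 3 response genes, those whose starts hold the C/EBP-ATF element, did not divide the arrays as Atf4 did. This grouping was made after the values were seen, and a link between the element and the division was not tested. Asns, which makes asparagine and is induced by ATF4 when amino acids are short, was 3.48, 3.90, 4.47 and 4.57 in Elektra replicates 1 to 4 and 4.18, 3.78, 4.59 and 3.70 in wild type. In Elektra it was lowest in arrays 1 and 2, where Atf4 was highest, and in wild type the arrays interleaved. Its log2 change between genotypes was 0.046 (SE 0.26, 95% interval -0.54 to 0.64, limma adjusted p = 0.989). The genes most like Asns over the arrays were Shd (r = 0.961), H2-T24 (0.960) and Gm22578 (0.959), again as a description.

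Trib3, a pseudokinase gene known to restrain ATF4 and CHOP, was 3.33, 2.66, 3.02 and 3.18 in Elektra and 3.32, 3.09, 2.60 and 3.19 in wild type. Low arrays came from both genotypes, and the means were 3.05 ± 0.29 and 3.05 ± 0.31, with an interval of the log2 change from -0.41 to 0.41. Nupr1, a small chromatin protein gene induced in stressed cells, was 3.47, 3.63, 3.14 and 3.37 in Elektra and 2.99, 3.10, 3.10 and 3.37 in wild type. The Elektra arrays lay above all but the highest of the wild-type arrays, wild-type replicate 4, which 2 Elektra arrays exceeded. The log2 change was 0.26 (SE 0.13, 95% interval -0.024 to 0.55), or 1.20-fold. It did not pass (limma p = 0.069 unadjusted and 0.884 adjusted, exact permutation p = 0.0857, two-sided). Nupr1 had the smallest spread of the 10, with a residual SD of 0.18.

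The further genes of the pathway, in lists chosen with earlier results of these data known, gave 0 genes past the adjusted threshold. Of 10 genes, 9 for subunits of eIF2 and of eIF2B, the exchange factor that phosphorylated eIF2 blocks, and Eif5 for the protein that triggers GTP hydrolysis on eIF2, 6 were higher and 4 lower in Elektra (median change 0.042), and 1 had an unadjusted p under 0.05. This was Eif2b2, which encodes the beta subunit of eIF2B, at 5.42, 5.50, 5.39 and 5.52 in Elektra and 4.96, 5.24, 5.34 and 4.97 in wild type. All 4 Elektra arrays lay above all 4 wild-type arrays, by a narrow margin, with a log2 change of 0.33 (SE 0.11). The limma p was 0.014 unadjusted and 0.884 adjusted over all genes, and the exact permutation p was 0.0286. Eif2b4 (0.15) and Eif2s3x (0.22) had positive log2 changes and Eif2s1, which encodes the subunit that is phosphorylated, a negative one of -0.18. Without Elektra replicate 2, 9 of the 10 genes were higher (median 0.094), and Eif2s1 was at -0.074.

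Of 14 genes that regulate the kinases or serve the eIF2 phosphatase, 12 were lower and 2 higher in Elektra, and 0 had an unadjusted p under 0.05. Their log2 changes had a median of -0.081. Without Elektra replicate 2 the count was 6 higher of 14 and the median -0.033, with Gcn1l1 at -0.083 and Ppp1ca at 0.28. Ppp1cc (-0.23) and Ppp1ca (0.17) encode catalytic subunits of that phosphatase, Ppp1r15b (-0.22) its constitutive partner, and Gcn1l1 (-0.21) the ribosome-bound activator of GCN2, the values being log2 changes. Of 12 bZIP factor genes that pair with ATF4 or are related to it, 10 were higher (median 0.088), 0 with an unadjusted p under 0.05. Among them were Atf5 (0.14), Batf (0.16), Cebpb (0.097) and Atf3 (0.62, SE 0.62), the last with the array split given above.

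The targets of ATF4 were taken by function. Genes of amino acid and one-carbon metabolism were higher for 11 of 14 (median 0.086), led by Gpt2 (0.36, SE 0.22) and Aldh18a1 (0.31, SE 0.20). Cbs (0.10) stood beside them and Pycr1 (-0.15) went the other way. The means of Pycr1, Aldh1l2 and Cth lay below the silent level. Without Elektra replicate 2, Gpt2 was at 0.13 and Aldh18a1 at 0.48. Amino acid transporter genes were higher for 7 of 9 (median 0.12), among them Slc7a1 (0.30), Slc1a4 (0.22), Slc7a5 (0.22) and Slc7a3 (0.099), the means of Slc1a4 and Slc7a3 lying below the silent level. Without Elektra replicate 2 the transporter median was 0.075, Slc1a4 was at 0.016, Slc7a5 at 0.15 and Slc7a1 at 0.48. In these 2 lists 0 genes had an unadjusted p under 0.05. Aminoacyl-tRNA synthetase genes, which charge tRNA, were lower for 8 of 11 (median -0.087), with Nars (-0.19), Cars (-0.28) and Iars (-0.18) on that side. Mars was on the other side, at 4.68 ± 0.28 and 4.29 ± 0.27 (limma adjusted p = 0.884, exact permutation p = 0.0857). Without Elektra replicate 2 the median of the synthetase list turned to 0.053, with 7 of 11 higher, and Nars was at -0.10 and Cars at -0.14.

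Of 15 stress and signalling targets of ATF4 and CHOP, 7 were higher and 8 lower (median -0.0021). Vldlr, a lipoprotein receptor gene, was 3.41, 4.32, 4.67 and 4.36 in Elektra and 3.35, 3.26, 3.05 and 4.26 in wild type. Elektra replicate 1 lay among the wild-type arrays and wild-type replicate 4 among the Elektra arrays, and the log2 change of 0.71 (SE 0.31) had a limma p of 0.043 unadjusted and 0.884 adjusted. Dnajb9 (-0.34), Bcl2l11 (-0.26) and Chac1 (0.14) followed by p in log2 change. Without Elektra replicate 2 the median was -0.047 and Bcl2l11 was at -0.056. Chac1, which breaks down glutathione and is among the genes most dependent on ATF4, was near the silent level at 2.23 ± 0.09 in Elektra and 2.08 ± 0.20 in wild type. All these counts stand beside 53.9% of all genes lying above 0, 2.63% with an unadjusted p under 0.05 and a higher value in Elektra, and 2.87% with a lower one.

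**Figure D4:**
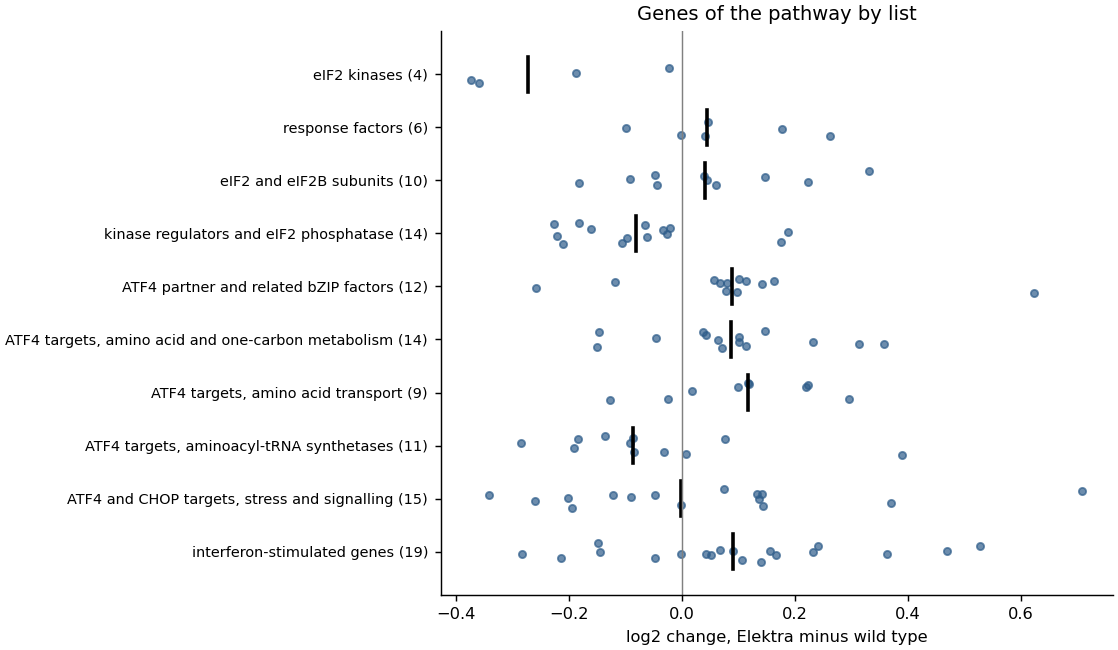
Log2 change, Elektra minus wild type (horizontal axis), of each measured gene in 10 lists (points, spread vertically for legibility; the number measured in brackets), with the median of each list as a black bar. The list medians run from -0.27 for the 4 kinases to 0.12 for the amino acid transporters, and points lie on both sides of 0 in every list but the kinases.

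Markers of other marrow cells were set beside these results. The mean level of 12 neutrophil and monocyte genes ran from 2.93 to 3.66 in Elektra and from 2.81 to 4.33 in wild type, the highest being wild-type replicate 2, with 11 of the 12 above the silent level. Among them Prtn3 (log2 change 0.25), Ly6c2 (0.26), Lyz2 (0.12) and Elane (0.48) had the smallest p-values. Megakaryocyte genes ran from 4.02 to 4.33 and from 4.15 to 4.29, with log2 changes of -0.14 for Vwf, 0.15 for Gp1bb and -0.20 for Itga2b. Of 12 lymphoid genes 4 lay above the silent level, and 7 were higher and 5 lower in Elektra. The smallest p-values in that list were those of Nkg7 (0.35), which lay above it, and of Cd3e (0.27), Il7r (0.15) and Cd8a (0.14), which lay below it, the values being log2 changes. Of 8 mast cell and basophil genes 1 lay above the silent level, and 6 were higher and 2 lower in Elektra. Mcpt4 (log2 change 0.21), Cma1 (0.25), Prss34 (0.17) and Tpsb2 (0.17) lay below that level. Of the genes of the gate, Kit was 8.97 ± 0.13 against 9.16 ± 0.09 in wild type, and Ly6a 9.27 ± 0.16 and 8.91 ± 0.36. Of progenitor genes the gate did not use, Flt3 was 7.09 ± 0.16 and 7.43 ± 0.07, and Cd34 8.40 ± 0.06 and 8.43 ± 0.18. At an unadjusted limma p under 0.05 there was 1 of the 6 sort and progenitor markers and 1 of the 7 megakaryocyte genes, both lower in Elektra. Over all genes 5.5% had such a p. In the neutrophil and monocyte, lymphoid, and mast cell and basophil lists 0 genes did. None of these markers passed an adjusted p of 0.05 in limma.

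The mean levels of the lists were also set against the division of the arrays seen for Atf4. The mean of the bZIP factors, Atf3 included, was 3.91 to 4.18 in arrays 1 and 2 and 3.68 to 3.80 in arrays 3 and 4, and that of the stress and signalling targets was 3.58 to 3.60 and 3.29 to 3.53. Amino acid and one-carbon genes lay the other way, at 3.12 to 3.26 and 3.26 to 3.46, with a slight overlap. Synthetase genes leaned that way too, at 5.05 to 5.46 and 5.40 to 5.55. Erythroid markers lay almost wholly the other way from Atf4, at 3.35 to 3.65 in arrays 1 and 2 and 3.65 to 4.10 in arrays 3 and 4. The mean of the 4 genes of the gate with Flt3 and Cd34, which mixes genes sorted for and against, was 6.46 to 6.60 and 6.60 to 6.70. The ranges of the other lists overlapped more widely, and the part of any of these in the division was not tested.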

How the data were processed

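The deposited values are the authors' log2 intensities, for which the submitters' processing notes name RMA and Expression Console 1.4; chip and genome build are not given in the sources used here. Per the labels' protocols, 100 to 200 pg of RNA went through 12 PCR cycles before labelling. The annotated table holds 34390 probe sets, of which the 31872 with 1 symbol were used. The authors' deposited signed fold scores and p-values were used only where named. Each gene took its probe set of highest mean. The genotypes were compared in limma 3.58.1 (R 4.3.3, lmFit then eBayes, two-sided, Benjamini-Hochberg adjustment over 30918 genes), dim probe sets included. The fit was also run on simulated data with independent noise in each gene, which cannot check for array effects shared by genes. Nothing says that the 4 samples of a genotype came from separate sorts, so p-values measure the spread between these samples. Same-numbered arrays had deviations correlated at 0.13, 0.011, 0.13 and 0.055, where 0.1 was the minimum set for pairing. Replicates 2 and 4 fell short of it, so numbers were not taken as pairs, although Atf4, Ddit3 and Ppp1r15a divided by number. Members and lists were chosen with earlier results of these data known. Named genes are the 10 members, up to 4 genes of smallest p per list, the 6 sort and progenitor markers, Slfn2 and the 3 most like Eif2ak2, Atf4 and Asns; other names were chosen after their values were seen. Dele1 was matched as 0610009O20Rik, and 2 listed genes were not matched. Alternatives tried were another input table, normalization, filters, probe set summaries, variance models, weights, blocks, left-out arrays, tests and thresholds. Some listed genes are not reported here.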

Additional observations from a re-analysis of the deposited data

How the results depend on the processing

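Under the 20 alternatives run for the counts, 0 genes and 0 of the 10 members passed in limma and in the pooled-variance test, with 1078 to 2115 genes at an unadjusted p under 0.05 and a lowest adjusted p of 0.088. The log2 changes of Eif2ak1, Eif2ak2 and Nupr1 kept their sign in all 19 alternatives run for each. Several of the 19 cannot move a log2 change here, so they lend that count no weight. These are the probe set filter and summaries (each member has 1 probe set), the variance model, the replicate block and the permutation test. On leaving out each array the members' median lay between -0.16 and 0.086. The sign turned for some arrays left out in Atf4 (-0.13 to 0.21), Ddit3 (-0.22 to 0.52), Ppp1r15a (-0.43 to 0.26), Trib3 (-0.15 to 0.13), Asns (-0.11 to 0.25) and Eif2ak3 (-0.12 to 0.053). With array weights Atf4 was at -0.0018 and Trib3 at 0.074. Without Elektra replicates 2 and 3 and wild-type replicate 4, a choice taken over from earlier work on these data, Eif2ak4 was at 0.093, Atf4 at -0.072, Trib3 at 0.25 and Asns at -0.16. The causes were not tested. With the replicate number as a block, which the arrays share only as a number, 0 genes passed and 1880 had an unadjusted p under 0.05. In that fit the members' median stayed at -0.013, as it must when each number holds both genotypes equally. The SE was 0.10 for Atf4, 0.24 for Ddit3 and 0.17 for Ppp1r15a. Eif2ak1 had an unadjusted limma p of 0.0085 there and Eif2ak2 of 0.015, and not every array correlated best with its own number. Signal over background limits Eif2ak3, Trib3 and Nupr1 most, since they lay closest to the silent level.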
